A study of Mus musculus with 20 samples.

Results

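The mitochondrial genome is a small circular DNA that encodes 37 genes in the mouse, and all of them were found in the gene table by their symbols, which begin with mt-. These 37 genes, among 55822 genes in the table, comprise 13 protein-coding genes, 2 ribosomal RNA (rRNA) genes and 22 transfer RNA (tRNA) genes. Their RNA was compared between kidneys of mice given puberulic acid and kidneys of control mice. With TMM scaling (trimmed mean of M-values), RNA of all 13 protein-coding genes was lower with the compound, against 31.1% of all genes tested. Neither rRNA differed detectably. With libraries scaled to total counts, 11 of the 13 were called lower, against 15.5% of all genes. Relative to the sum of the mitochondrial mRNAs, mt-Co1 and mt-Nd5 were higher and mt-Nd2 and mt-Nd3 were lower. Both rRNAs were also higher on that scale, as were 77.9% of all genes tested.

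RNA was measured in whole kidney of male mice of the inbred strain C57BL/6J at 8 weeks of age. Control mice received phosphate-buffered saline (PBS), and treated mice received 1 mg per day of puberulic acid, a tropolone that moulds of the genus Penicillium can make. Dosing ran once a day for 6 doses, and kidneys were taken on day 7, after a day that the protocol gives as free of dosing in all groups. Each group held 5 samples, numbered replicates 1 to 5. The route is given as oral in the series' design and as either gavage or intraperitoneal in the treatment protocol, and the labels do not say which each animal had. The study also had groups given Choleste-Help, a dietary supplement, from a normal or a toxic lot, which are not analysed here.

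Mitochondrial DNA is read from both strands into long precursor RNAs. One strand's precursor carries the rRNAs, most tRNAs and all mRNAs except mt-Nd6. The tRNAs lie between the other genes and are cut out by the endonucleases RNase P and ELAC2, which frees the mRNAs and rRNAs. Most mRNAs then receive a poly(A) tail, and their levels depend on stability as well as on synthesis. The proteins are subunits of respiratory complexes I, III and IV and of ATP synthase (complex V), and the proximal tubule of the kidney is among the tissues richest in mitochondria.

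The poly(A) tail matters for what these libraries could capture, because they were made from poly(A)-selected RNA. In the GENCODE M21 transcripts (build GRCm38), 10 of the 13 mRNAs end in a complete stop codon, and 3 end in a lone T that becomes a stop codon only when the tail is added. The ends of those 3, of mt-Co1 and of mt-Nd6, which is read from the opposite strand, are shown 5′ to 3′ as DNA letters, with the bases of the last codon in capitals.
mt-Co3: tccatttattgatgaggatctT
mt-Nd4: ctaattacaggcctgacaataT
mt-Cytb: aaaatactaaaattatatccaT
mt-Co1: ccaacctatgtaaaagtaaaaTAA
mt-Nd6: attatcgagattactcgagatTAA

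The tRNAs are far shorter than the mRNAs and are finished with a CCA end rather than a poly(A) tail. The pair with the most counts are shown because they hold nearly all tRNA counts in these libraries. mt-Ts1 carries serine and mt-Te carries glutamate, and both are 69 bases long. The capitals in mt-Ts1 mark 3 bases that overlap the end of mt-Co1 on the opposite strand.
mt-Ts1: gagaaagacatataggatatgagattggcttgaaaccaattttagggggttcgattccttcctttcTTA
mt-Te: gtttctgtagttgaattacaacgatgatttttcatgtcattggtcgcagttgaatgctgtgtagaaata

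Libraries held 18409877 to 24705587 estimated counts, and p-values measure only the spread between these samples. Levels are given as CPM, counts brought to a common library size with TMM factors (trimmed mean of M-values), which ran from 0.827 to 0.848 in the control group and from 1.17 to 1.26 in the treated group. Because these factors differ between the groups, total-count scaling moved the median change over every gene tested from 0.05 to 0.56 on the log2 scale, and under that scaling mt-Co1, mt-Nd5 and mt-Ts1 were no longer called. Some libraries stood apart. Puberulic acid replicate 5 had the lowest mitochondrial share of its group, puberulic acid replicate 1 had the lowest CPM of both rRNAs, and control replicates 4 and 5 had far more mt-Nd6 than the other controls. Controls 4 and 5 were also the highest of their group for both rRNAs and mt-Ts1, and the lowest for mt-Nd3.

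The mitochondrial genes took a smaller share of the library with puberulic acid. In control replicates 1 to 5 they held 22.2%, 18.8%, 19.4%, 19.6% and 21.2% of all counts, a mean of 20.2% ± 1.42 (SD, n = 5). In puberulic acid replicates 1 to 5 they held 13.8%, 13.5%, 13.8%, 13.2% and 10.5%, a mean of 12.96% ± 1.38 (SD, n = 5). The groups did not overlap, and the means differed by 7.29 percentage points. Replicate 5 of the treated group lay apart from the other 4, whose mean was 13.6% ± 0.294 (SD). The 13 mRNAs made up nearly all of this RNA, at 20.05% ± 1.40 of all counts in controls and 12.7% ± 1.36 with the compound (SD, n = 5 each). No test was made on these sums. Of the 10 most abundant genes in the table, 8 were mitochondrial in controls and 7 with puberulic acid, and mt-Co1 ranked 1 in both groups.

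**Figure D1:**
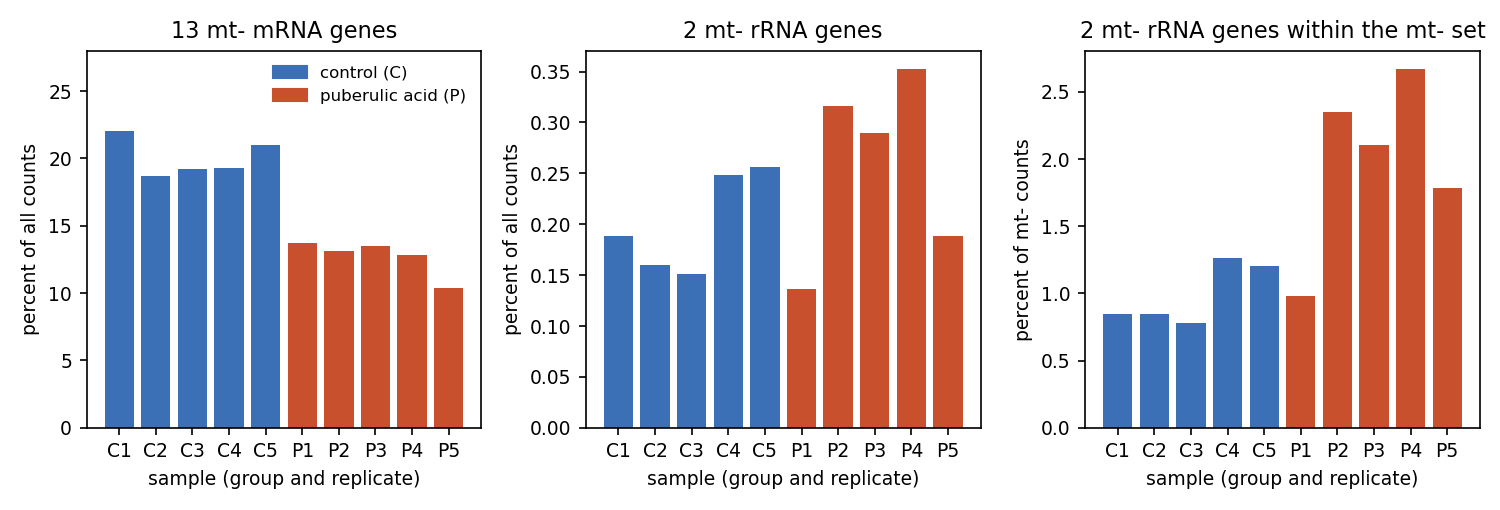
Bars give the percent of all counts held by the 13 mt- mRNA genes (left) and the 2 mt- rRNA genes (middle), and the percent of mt- counts held by the rRNA genes (right), for control replicates C1 to C5 and puberulic acid replicates P1 to P5. The mRNA share was 18.7% to 22.0% in controls and 10.3% to 13.7% with the compound, while the rRNA bars of the groups overlap.

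Of the 37 genes, 16 passed the low-count filter and were tested by edgeR's quasi-likelihood test across 16266 genes: the 13 mRNAs, both rRNAs and mt-Ts1. The other 21, all tRNAs, were not tested. At an adjusted p-value under 0.05, 14 of the 16 were lower with puberulic acid, namely the 13 mRNAs and mt-Ts1, and 0 were higher. Among all genes tested, 65.3% were called in either direction, 31.1% lower and 34.2% higher. For each of the 13 mRNAs the CPM values of the groups were fully separate, with no overlap, against 50.1% of all genes tested. The median log2 fold change of the 13 mRNAs was -1.30, and the median of all genes was 0.05. Under total-count scaling the median of the mRNAs was -0.80, and 11 of the 13 were called lower, against 15.5% of all genes. The exceptions were mt-Co1 and mt-Nd5.

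**Figure D2:**
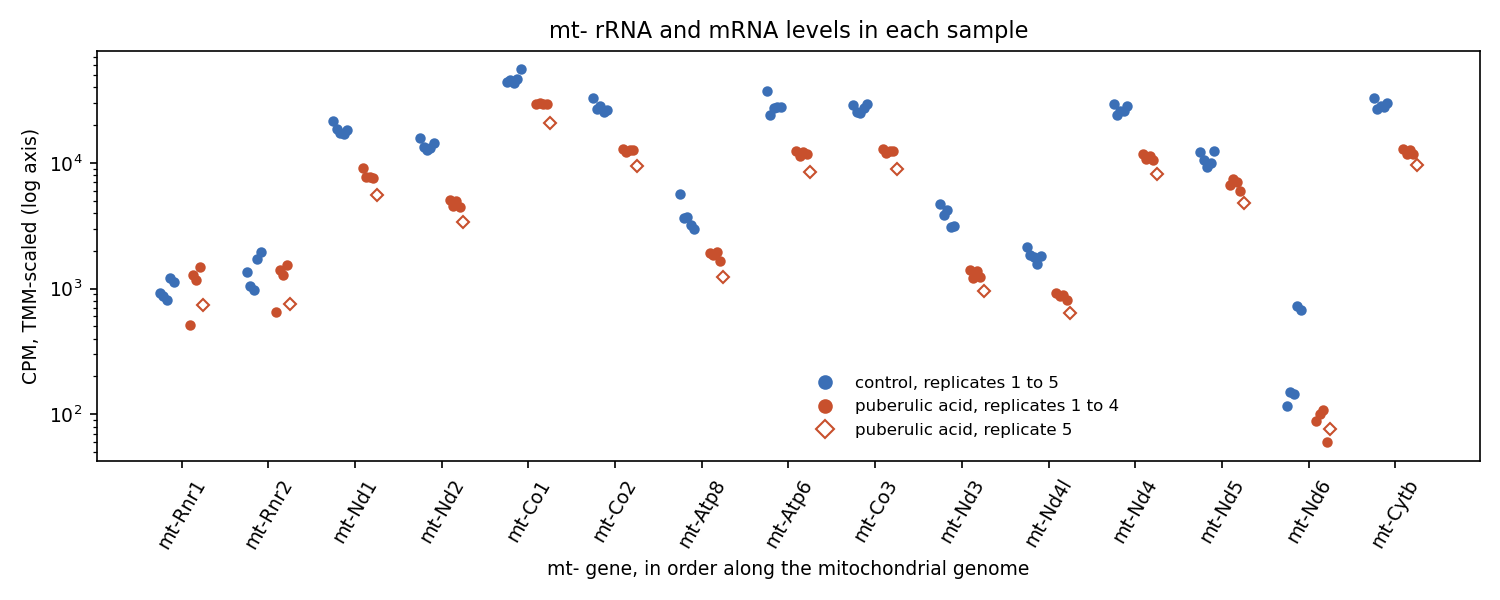
Points give the TMM-scaled CPM (log axis) of each sample for the 2 rRNA and 13 mRNA genes, in their order along the mitochondrial genome. All control points lie above all puberulic acid points for each mRNA, replicate 5 of the treated group (open diamonds) is lowest for 12 of the 13, and the rRNA points of the groups overlap.

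Complex I, the entry point of electrons from NADH, has 7 subunits encoded in the mitochondrial genome, mt-Nd1 to mt-Nd6 and mt-Nd4l. mt-Nd2 had 15754, 13331, 12718, 13006 and 14250 CPM in control replicates 1 to 5. In puberulic acid replicates 1 to 5 it had 5063, 4518, 4972, 4472 and 3399 CPM. Every treated sample was below every control, and the fall was 3.08-fold (log2 fold change -1.62 ± 0.13 SE, adjusted p = 6.2e-07, edgeR). mt-Nd3 had 4684, 3871, 4176, 3112 and 3169 CPM in the controls and 1413, 1208, 1383, 1227 and 956 CPM in the treated samples. Controls 4 and 5 were the lowest of their group for mt-Nd3 and still lay well above all treated samples. Its log2 fold change was -1.62 ± 0.15 SE (adjusted p = 1.9e-06, edgeR).

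mt-Nd5, the subunit at the far end of the membrane arm of complex I, fell less. Its controls had 12200, 10450, 9295, 10027 and 12361 CPM, and its treated samples 6695, 7428, 7028, 6002 and 4782 CPM. The groups were separate, with a fall of 1.70-fold (log2 fold change -0.77 ± 0.14 SE, adjusted p = 0.00043, edgeR). Under total-count scaling its log2 fold change was -0.26 and the call was lost (adjusted p = 0.0781, edgeR). The subunits of middling change were 3, with log2 fold changes of -1.30 ± 0.14 for mt-Nd1, -1.34 ± 0.12 for mt-Nd4 and -1.14 ± 0.12 for mt-Nd4l (SE). The mRNAs of mt-Nd4l and mt-Nd4 overlap by 7 bases and occur on a shared transcript, so reads over the junction can be split between them by the counting.

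mt-Nd6 varied most among controls, relative to its mean, of the 13 mRNAs (coefficient of variation 85.6%). It is the only mRNA read from the opposite strand, and it had 115, 150, 145, 728 and 676 CPM in control replicates 1 to 5. In the treated replicates it had 88.9, 100.3, 108, 59.8 and 76.1 CPM. The groups did not overlap, but controls 4 and 5 stood several-fold above the other controls, and the highest treated sample was close to the lowest control. The log2 fold change was -2.07 ± 0.52 SE (adjusted p = 0.0040, edgeR). Without controls 4 and 5, which were chosen for their high values, it was -0.68 and was still called (adjusted p = 0.0093, edgeR). Its 3′ end overlaps that of mt-Nd5 by 14 bases, and the libraries were made with a strand-specific kit. Whether the deposited counts used the strand is not given in the sources used here, and if they did not, these counts could hold reads of the opposite precursor. The mt-Nd6 level is also that of the poly(A)-selected part of its RNA. Whether selection captured it like the other mRNAs was not tested.

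Cytochrome b, encoded by mt-Cytb, is the sole mitochondrially encoded subunit of complex III. The controls had 32750, 26636, 28421, 27656 and 29749 CPM, and the treated samples had 12804, 11836, 12683, 11776 and 9543 CPM. All treated samples were below all controls, with a fall of 2.48-fold (log2 fold change -1.31 ± 0.12 SE, adjusted p = 1.7e-06, edgeR).

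Complex IV, cytochrome c oxidase, has its 3 core subunits encoded by mt-Co1, mt-Co2 and mt-Co3. mt-Co1, which holds the site of oxygen reduction, had the smallest fall of the 13 mRNAs, close to that of mt-Nd5. Its controls had 43685, 45248, 42826, 46746 and 55310 CPM, and its treated samples 29166, 29720, 29159, 29415 and 20901 CPM. Treated replicates 1 to 4 were close to each other, and replicate 5 was far below them. The fall was 1.69-fold (log2 fold change -0.76 ± 0.14 SE, adjusted p = 0.00038, edgeR), and under total-count scaling it was -0.25 and not called (adjusted p = 0.0723, edgeR). mt-Co2 and mt-Co3 fell by more, with log2 fold changes of -1.23 ± 0.13 and -1.22 ± 0.12 (SE). mt-Co2 ran from 25515 to 32690 CPM in controls and from 9379 to 12858 CPM in treated samples. mt-Co3 ran from 25060 to 29565 CPM and from 9006 to 12819 CPM.

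A gene outside the mitochondrial genome shares most of its sequence with mt-Co1. The transcript of Gm29216 is 492 bases long, and 483 of them match positions 1063 to 1545 of mt-Co1, counted from the first base of its transcript, with 1 mismatch. The mismatch is A1066T (mt-Co1 has the first base, the copy the second), shown here in capitals because nearly every read from this stretch fits both genes.
mt-Co1: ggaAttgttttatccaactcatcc
Gm29216: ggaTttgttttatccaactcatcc

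The counting therefore had to divide reads of the last part of mt-Co1 between the mitochondrial gene and this copy. Gm29216 was assigned 15.9% ± 3.35 of the mt-Co1 count in controls and 15.65% ± 1.505 with puberulic acid (SD, n = 5 each), and its own change of -0.75 ± 0.15 SE (log2) was close to that of mt-Co1. The level of mt-Co1 is therefore uncertain by the reads given to the copy, in both groups by a like mean share. Between samples that share ran from 12.0% to 20.1% in controls and from 13.5% to 17.4% with puberulic acid, which can add to the spread of mt-Co1.

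ATP synthase has its membrane subunits a and 8 encoded by mt-Atp6 and mt-Atp8, whose reading frames overlap by 43 bases on a shared mRNA. mt-Atp6 had 36969, 23845, 27435, 27693 and 27745 CPM in the controls and 12340, 11417, 12216, 11771 and 8474 CPM in the treated samples. Control 1 was the highest and treated replicate 5 the lowest, and the groups were separate. The log2 fold change was -1.35 ± 0.15 SE for mt-Atp6 and -1.15 ± 0.18 SE for mt-Atp8, both called (edgeR, adjusted p = 8.9e-06 and 0.00017).

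The mitochondrial rRNAs form the core of the small (mt-Rnr1) and large (mt-Rnr2) subunits of the mitochondrial ribosome. mt-Rnr1 had 917, 866, 808, 1213 and 1120 CPM in controls and 512, 1276, 1163, 1492 and 740 CPM with puberulic acid. The treated range contained the whole control range, and the log2 fold change was 0.07 ± 0.25 SE (adjusted p = 0.811, edgeR). Under total-count scaling it was 0.58 and not called (adjusted p = 0.0521, edgeR). mt-Rnr2 had 1360, 1052, 983, 1726 and 1945 CPM in controls and 646, 1405, 1292, 1537 and 756 CPM in treated samples. The groups overlapped, and the log2 fold change was -0.33 ± 0.27 SE (adjusted p = 0.300, edgeR), and under total-count scaling its sign turned to 0.18. Treated replicates 1 and 5 were the lowest for both rRNAs. These levels are those of the poly(A)-selected part of the rRNA and not of ribosomes.

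**Figure D3:**
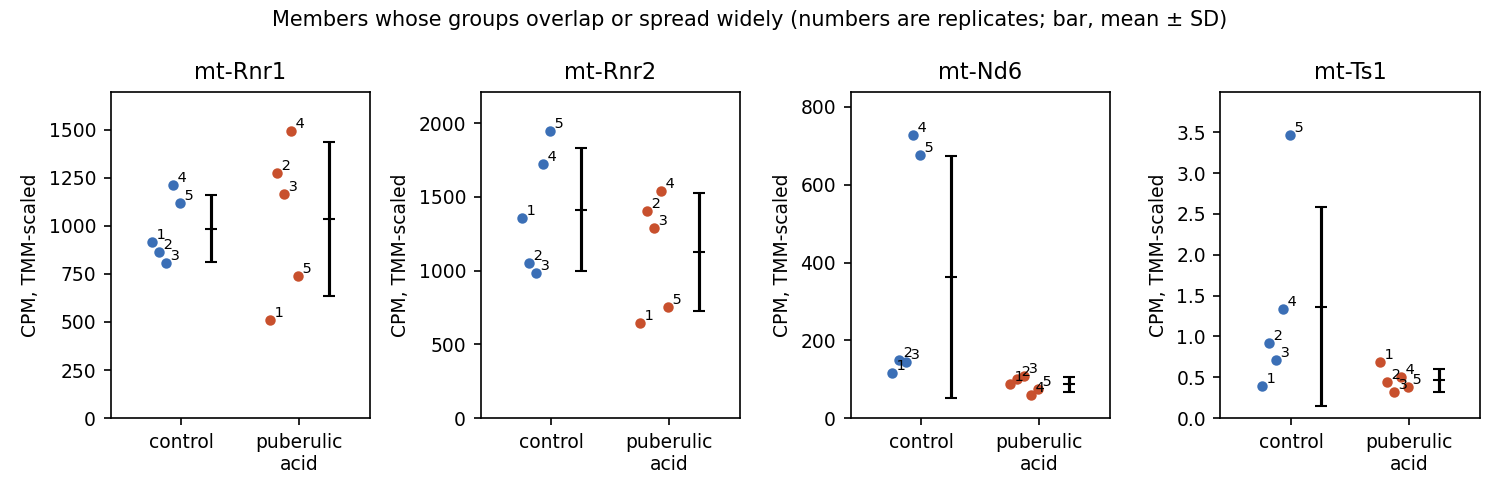
Points give the TMM-scaled CPM of each sample for mt-Rnr1, mt-Rnr2, mt-Nd6 and mt-Ts1, labelled by replicate number, with the mean ± SD of each group (n = 5). Treated replicates 1 and 5 are lowest for both rRNAs, and controls 4 and 5 are highest for mt-Nd6, at 728 and 676 CPM.

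Few counts were assigned to the tRNAs. No count was given to 12 of the 22 in any of the 10 samples, and 3 counts correspond to 0.158 to 0.195 CPM in the controls and 0.0964 to 0.128 CPM in the treated libraries, a floor that covers counting error only. All 22 together had 142 counts over the 5 controls and 70.7 over the 5 treated samples, of which mt-Ts1 took 110 and 60.3. mt-Te followed with 21.2 and 5.66 counts. Across all samples, tRNAs of the minus strand of the annotation held 206 counts and those of the plus strand 5.90, although 8 of the 22 tRNA genes lie on the minus strand. mt-Ts1 had 0.394, 0.915, 0.716, 1.34 and 3.46 CPM in controls and 0.684, 0.439, 0.320, 0.498 and 0.378 CPM in treated samples. The groups overlapped and control 5 was far above the rest. Its log2 fold change was -1.52 ± 0.52 SE (adjusted p = 0.0208, edgeR), and without control 5 it was -0.84 and not called (adjusted p = 0.0704, edgeR). Under total-count scaling the call was also lost, at -1.02 (adjusted p = 0.0920, edgeR). The other 21 had too few counts for a comparison.

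Levels per kilobase of annotated transcript order the mRNAs and rRNAs within a group by the counts that these poly(A)-selected libraries gave. They may not give the order of abundance in the kidney. mt-Nd4l and mt-Nd4, which occur on a shared transcript, had 6133 and 19342 CPM per kb in controls. In controls mt-Atp6 and mt-Co2 were highest, at 42199 ± 7173 and 40995 ± 4128 CPM per kb (SD, n = 5 each), and did not differ beyond their spread. mt-Co3 followed at 34666 ± 2701 and mt-Co1 at 30267 ± 3242 CPM per kb. The reads given to Gm29216 are left out of mt-Co1, and adding them could change the order of mt-Co3 and mt-Co1. mt-Cytb had 25387 ± 2066 CPM per kb, and mt-Nd1, mt-Nd4 and mt-Atp8 lay together between 18813 and 19378. mt-Nd2 had 13306 and mt-Nd3 10927 CPM per kb, whereas mt-Nd4l and mt-Nd5 were near each other at 6133 and 5958. Of these 15 genes both rRNAs and mt-Nd6 were the lowest, at 1031 for mt-Rnr1, 893 for mt-Rnr2 and 699 ± 598 for mt-Nd6. With puberulic acid mt-Co1 led, at 17911 ± 2455 CPM per kb, with mt-Co2 at 17439 ± 2106 and mt-Atp6 at 16510 ± 2336, a trio whose spreads overlap. mt-Nd2, mt-Nd3 and mt-Nd5 were then close to each other at 4320, 3555 and 3502 CPM per kb, and mt-Nd6 had 167.

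The members were next compared with each other, by setting the size of each library to the summed counts of its 13 mitochondrial mRNAs. Values on this scale do not depend on how nuclear genes are scaled, but a rise in the share of an abundant mRNA lowers the shares of the others. Of the 16 genes tested, 4 were higher and 2 were lower relative to the set (adjusted p under 0.05, edgeR). On the same scale 77.9% of all genes tested were called higher and 5.55% lower, so most nuclear genes were higher relative to the mitochondrial mRNA sum with the compound. Of the 13 mRNAs, 9 were not called.

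**Figure D4:**
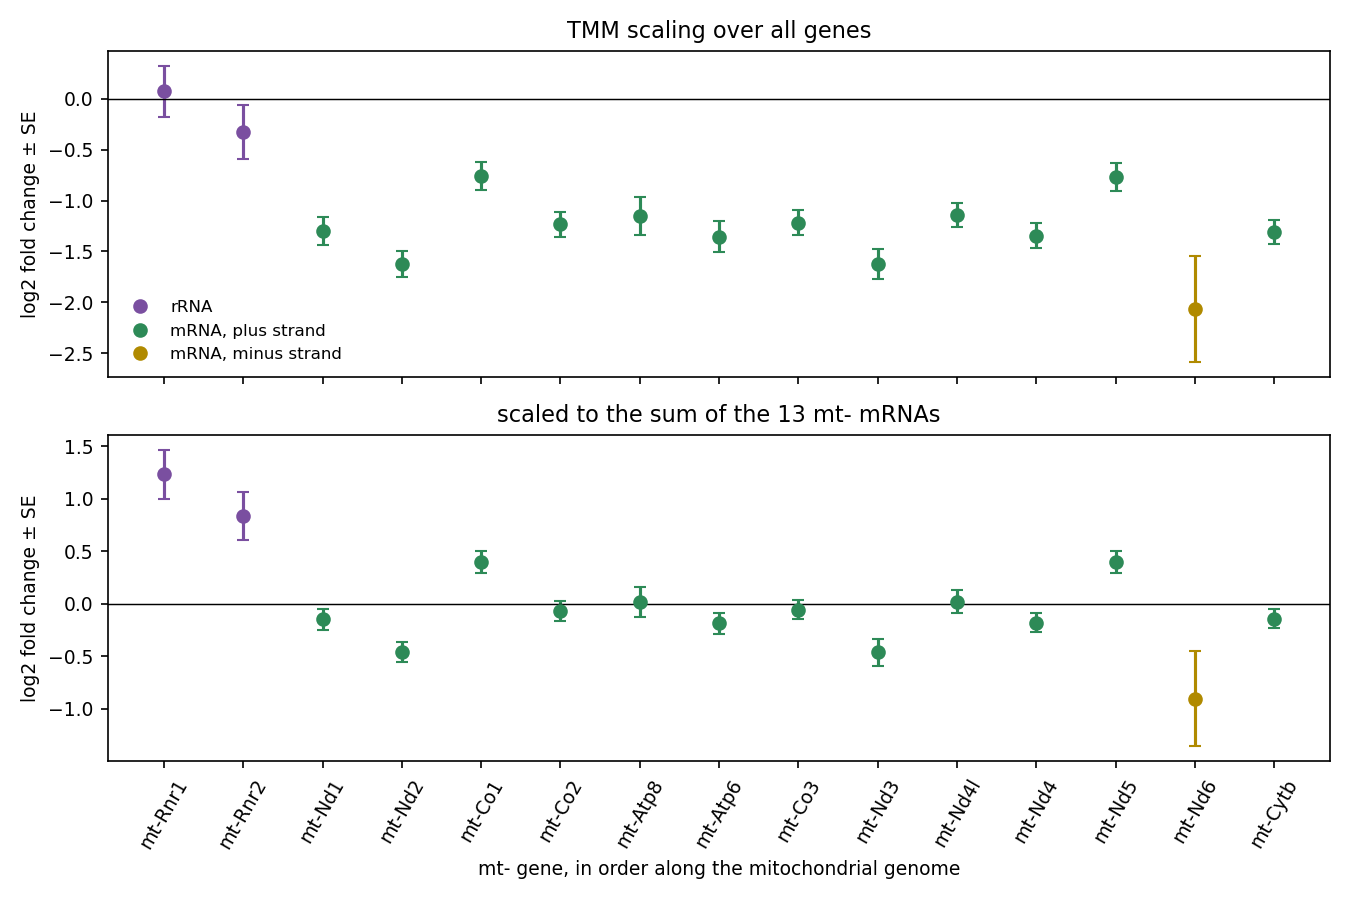
Points give the log2 fold change with puberulic acid ± SE (n = 5 against 5) for the 2 rRNAs and 13 mRNAs in their order along the mitochondrial genome, from the fit scaled on all genes (top) and from the fit scaled to the 13 mRNAs (bottom). The mRNAs run from -2.07 to -0.76 in the top panel, and in the bottom panel both rRNAs, mt-Co1 and mt-Nd5 lie above 0 while mt-Nd2, mt-Nd3 and mt-Nd6 lie lowest.

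mt-Co1 took a larger part of the mitochondrial mRNA with puberulic acid. It held 16.4%, 20.2%, 18.8%, 20.4% and 22.1% in control replicates 1 to 5 and 24.96%, 26.7%, 25.5%, 26.7% and 25.4% in the treated replicates. The groups did not overlap, and relative to the set mt-Co1 was 1.32-fold higher (log2 fold change 0.40 ± 0.10 SE, adjusted p = 0.0019, edgeR). The copy Gm29216 had a log2 fold change of 0.40 ± 0.13 SE on the same scale. mt-Nd5 moved alike. Its share was 4.58%, 4.67%, 4.09%, 4.38% and 4.93% in controls and 5.73%, 6.67%, 6.14%, 5.44% and 5.82% with the compound, without overlap (log2 fold change 0.40 ± 0.11 SE, adjusted p = 0.0027, edgeR).

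mt-Nd2 and mt-Nd3 took smaller shares. mt-Nd2 held 5.91%, 5.96%, 5.60%, 5.68% and 5.68% of the mitochondrial mRNA in controls and 4.33%, 4.06%, 4.35%, 4.05% and 4.14% in treated samples. Its values were tight within each group and far apart between them (log2 fold change -0.46 ± 0.10 SE relative to the set, adjusted p = 0.00037, edgeR). mt-Nd3 held 1.76%, 1.73%, 1.84%, 1.36% and 1.26% in controls and 1.21%, 1.084%, 1.21%, 1.11% and 1.16% in treated samples. Controls 4 and 5 were close to the treated samples in this share. The log2 fold change of mt-Nd3 was -0.46 ± 0.13 SE (adjusted p = 0.0039, edgeR), and it was -0.62 without controls 4 and 5.

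**Figure D5:**
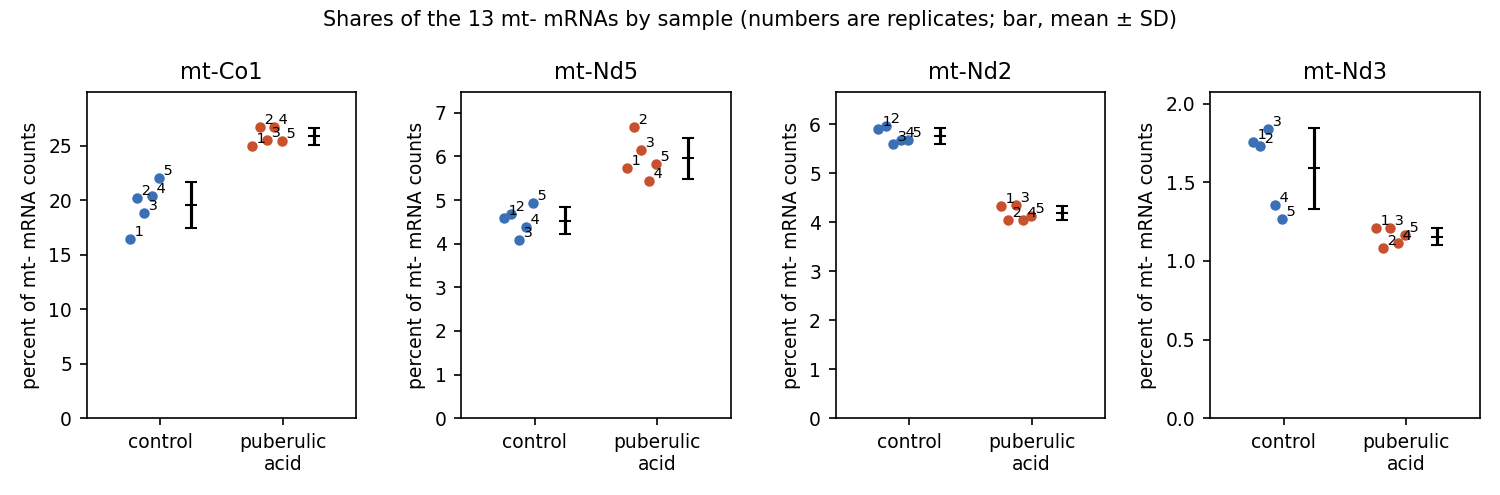
Points give the percent of the counts of the 13 mitochondrial mRNAs held by mt-Co1, mt-Nd5, mt-Nd2 and mt-Nd3 in each sample, labelled by replicate number, with the mean ± SD of each group (n = 5). The treated samples lie above all controls for mt-Co1 and mt-Nd5 and below all controls for mt-Nd2 and mt-Nd3.

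A further 2 mRNAs had shares that did not overlap, although their tests relative to the set were not passed. mt-Nd4 ran from 10.8% to 11.3% in controls and from 9.56% to 10.0% in treated samples (adjusted p = 0.0770, edgeR). mt-Cytb ran from 11.9% to 12.5% in controls and from 10.6% to 11.6% in treated samples (adjusted p = 0.162, edgeR). mt-Nd6 had the largest fitted difference among the mRNAs on this scale, -0.90 ± 0.45 SE, and was not called (adjusted p = 0.0757, edgeR). The value depended on the controls: leaving out control 1, 2 or 3 gave -1.14, -1.09 and -1.10 with adjusted p = 0.0150, 0.0361 and 0.0330, and leaving out control 4 or 5 gave -0.45 and -0.59, not called, and leaving out both turned it to 0.49 (adjusted p = 0.0531, edgeR).

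Summed by complex, the subunits of complex IV held 42.7% ± 1.87 of the mitochondrial mRNA counts in controls and 47.9% ± 0.949 with puberulic acid (SD, n = 5 each). Complex I held 31.7% ± 0.528 and 28.97% ± 0.769, and complex III 12.1% ± 0.268 and 10.99% ± 0.398. The groups did not overlap for these complexes. Complex V held 13.5% ± 1.52 and 12.1% ± 0.226, with overlap. Within complex IV the share of mt-Co1 was higher, while mt-Co2 and mt-Co3 were not called relative to the set (log2 fold changes -0.07 and -0.06).

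The rRNAs made up a larger part of mitochondrial RNA with puberulic acid. They held 0.847%, 0.850%, 0.782%, 1.27% and 1.21% of the mitochondrial counts in control replicates 1 to 5. In the treated replicates they held 0.982%, 2.35%, 2.10%, 2.67% and 1.79%. Treated replicate 1 lay within the control range, and the other 4 were above it. There were 104 ± 22.5 mRNA counts per rRNA count in controls and 56.1 ± 26.0 with the compound (SD, n = 5 each). Relative to the mRNA sum, mt-Rnr1 was higher by 1.23 ± 0.23 SE and mt-Rnr2 by 0.84 ± 0.23 SE on the log2 scale (adjusted p = 0.00016 and 0.0036, edgeR). The median of all genes tested on this scale was 1.23, so relative to the mitochondrial mRNAs neither rRNA stood above the middle of all genes by more than its SE. As a share of all counts the rRNAs were at 0.201% ± 0.0489 and 0.257% ± 0.0910, with overlap.

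Puberulic acid replicate 5 differed from the other treated samples in level more than in composition. Its CPM was the lowest of the 5 for 12 of the 13 mRNAs, at 0.673 (mt-Atp8) to 0.777 (mt-Cytb) of the mean of the other 4 treated samples. The exception was mt-Nd6, at 0.853 of that mean, which was lowest in replicate 4. In contrast, 11 of its 13 mRNA shares lay inside the range of the other 4 samples. The same count was 9 for replicate 1, 6 for replicate 2, 6 for replicate 3 and 7 for replicate 4. The shares outside the range were mt-Co2 at 11.4% and mt-Cytb at 11.6%, both above it. Without replicate 5 all 13 mRNAs were still called lower, with a median log2 fold change of -1.24. Replicate 1 was the highest of the treated samples for 9 of the 13 mRNAs and the lowest for both rRNAs.

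Nuclear genes that serve the mitochondrial genome were examined in 4 lists, and 31 chosen nuclear subunits of the respiratory complexes in a further list. Their counts are to be read against all genes tested, of which 34.2% were called higher and 31.1% lower, or 56.4% higher and 15.5% lower under total-count scaling. Of 18 genes of mitochondrial transcription and its regulators, 3 were higher, 9 were lower and 6 were not called, with a median log2 fold change of -0.39 that turned to 0.12 under total-count scaling. The RNA polymerase Polrmt fell (log2 fold change -0.88 ± 0.22 SE, adjusted p = 0.0036, edgeR), while the DNA-packaging factor Tfam had -0.27 ± 0.14 SE and was not called (adjusted p = 0.111, edgeR). The nuclear receptor Esrra (log2 fold change -1.43), the ribosomal protein Mrpl12 (-1.27) and the coactivator Ppargc1a (-1.19) fell as well. The related coactivator Pprc1 rose by 1.86 and the transcription factor Nrf1 by 0.88. Under total-count scaling the list had 6 higher and 4 lower, Polrmt had -0.37 and was not called (adjusted p = 0.149, edgeR), and the sign of Tfam turned to 0.24.

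Of 26 genes of mitochondrial RNA processing, polyadenylation and decay, 2 were higher, 16 were lower and 8 were not called. Lrpprc, which stabilises mitochondrial mRNAs, fell (log2 fold change -0.94 ± 0.12 SE, adjusted p = 2.2e-05, edgeR). The RNA-binding protein Grsf1 (log2 fold change -1.15) and the RNase P nuclease Prorp (-1.13) also fell. Trnt1, which adds CCA to tRNAs, rose by 0.49, and the poly(A)-removing enzyme Pde12 by 0.44. Under total-count scaling the list had 9 higher and 6 lower, with its median turning from -0.41 to 0.10, so its balance depended on the scaling. The 5 named genes kept their directions under that scaling.

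Of 15 genes of mitochondrial DNA replication and nucleotide supply, 1 was higher, 8 were lower and 6 were not called. The topoisomerase Top1mt (log2 fold change -1.12) and the polymerase subunit Polg2 (-0.99) fell, and the nuclease Exog rose by 1.03. Of 22 genes chosen as general markers of mitochondrial content, 21 were found in the table. Of these, 0 were higher, 16 were lower and 5 were not called. The outer membrane channel Vdac1 (log2 fold change -0.83), the chaperone Hspd1 (-0.96) and the ADP/ATP carrier Slc25a5 (-1.46) all fell. Under total-count scaling the replication list had 8 higher and 3 lower, and the content list 8 higher and 5 lower.

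The nuclear subunits of the respiratory complexes examined here were a chosen list of 31 and not all subunits. All 31 were called lower with puberulic acid, against 31.1% of all genes tested. Their median log2 fold change was -0.94, beside -1.30 for the 13 mitochondrial mRNAs and 0.05 for all genes. Sdhb of complex II (log2 fold change -1.53) and Ndufv1 of complex I (-1.45) had the largest falls of the list. Under total-count scaling 27 of the 31 were called lower and 0 higher, against 15.5% and 56.4% of all genes, with a median of -0.44.

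Markers of kidney cell types differed between the groups as well. The 14 markers of the proximal tubule were all detected, and their summed level was 49367 to 61392 CPM in controls and 7147 to 10279 CPM with puberulic acid. All 14 were lower under both scalings, with a median log2 fold change of -3.11. Of 10 markers of the loop of Henle, distal tubule and collecting duct, 9 were lower (summed level 4410 to 6356 and 3347 to 6625 CPM), and under total-count scaling 5 were lower and 1 was higher. Of 8 glomerular and endothelial markers, 2 were lower and 6 were not called (332 to 643 and 141 to 536 CPM), a share near the 31.1% of all genes called lower. Under total-count scaling 0 of these 8 were called in either direction, and their median turned from -0.43 to 0.08. Of 8 immune cell markers tested out of 10, 4 were higher and 0 lower (74.9 to 171 and 143 to 450.0 CPM), and 6 were higher under total-count scaling. Of 8 fibroblast and muscle markers, 7 were higher and 0 lower (162 to 271 and 754 to 2814 CPM), and all 8 under total-count scaling. Among all genes tested, 34.2% were called higher, and 56.4% under total-count scaling. None of the markers in these lists was at 0 in all samples. The part of these markers' cell types in the mitochondrial result was not tested, and in whole kidney fewer cells of a type and less RNA per cell cannot be told apart.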

How the data were processed

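The authors deposited estimated counts (fractional values) for each gene, with no normalization stated. Per the submitters' processing notes, reads were handled with fastp 0.22.0, FastQC 0.12.1 and MultiQC 1.28, and Salmon 1.10.3, DESeq2 and build GRCm39 are named, with no role or annotation stated. Per the labels' protocols, libraries were poly(A)-selected and made with a strand-specific kit. Of the table's columns, 10 matched control and puberulic acid samples by name, and 10 others did not show which supplement lot they hold and were not used in any step.

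Counts were rounded, filtered with filterByExpr, scaled by TMM and tested with edgeR 4.0.16's quasi-likelihood test (limma 3.58.1, R 4.3.3). Benjamini-Hochberg adjustment covered 16266 genes, with a threshold of 0.05. A second fit used the summed counts of the 13 mt- mRNAs as library size. Total-count scaling used no factor. Both fits were tested on simulated data in which 200 genes outside the mt- set were changed. In the measured data 65.3% of genes were called and the mt- share fell, so that test cannot check the scaling. Neighbouring-gene ratios were tested by exact permutation over all samples, two-sided. Python 3.11.15, numpy 2.4.6, scipy 1.17.1, pandas 2.3.3, DESeq2 1.42.0 and blastn 2.17.0 (at least 90% identity over 100 bases) were used. Coordinates are not given because the reference (GENCODE M21) is of another build.

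All 37 mt- genes are reported. Of each pathway list, the 2 called genes with the largest change in each direction are named, and Tfam, Polrmt, Ppargc1a, Lrpprc and Vdac1 whatever their values. Members and lists were chosen with earlier results of these data known. Alternatives covered scaling, filters, DESeq2, a robust fit, the replicate block and leaving out each sample; those added after seeing the data left out controls 4 and 5 or treated replicates 1 and 5, or counted Gm29216. The neighbouring-gene ratios and their fits without each sample were also added then. Same-numbered samples are separate animals, and their deviations correlated by -0.17 to 0.04, so the numbers were not taken to pair them.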

Additional observations from a re-analysis of the deposited data

Results flagged for a closer look

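In 76 groups of 5 values (levels, shares within the set and class shares), 9 had an extreme sample that lay over 0.71 of the range away from the next. About 1 in 20 groups, or 3.8 of 76, would be so by chance, and these values are related to each other.

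Puberulic acid replicate 5 was the lowest, apart from the other treated samples, in 6 of them. The gap was 0.936 of the range for the CPM of mt-Co1, 0.832 for mt-Co2, 0.761 for mt-Atp6 and 0.7504 for mt-Co3. It was 0.744 for the mRNA share of all counts and 0.806 for the share of all mt- genes. Its within-set shares had no such gap.

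Control replicate 1 was the highest of its group in mt-Atp8 CPM, with 5655 against at most 3696 in the others (gap 0.733). Puberulic acid replicate 1 had the highest share of mt-Nd1 (gap 0.896), and puberulic acid replicate 4 the lowest share of mt-Nd4l (gap 0.735).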

How the results depend on the processing

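The number of called mt- genes was 11 to 15 over 21 alternatives to the 14 reported, and 10104 to 11108 genes in all were called when a sample was left out, against 10622. Relative to the mt- mRNA sum, 6 or 7 of the 16 were called in 15 alternatives. mt-Rnr1 on the TMM scale had no settled sign: it was -0.0076 with the replicate block and ran from -0.13 to 0.22 when a sample was left out. mt-Rnr2 turned to 0.18 under total-count scaling. Relative to the set, mt-Atp8 was -0.000404 when scaled to all mt- genes, -0.15 without controls 4 and 5, and -0.074 to 0.14 when a sample was left out. mt-Nd4l was -0.055 without controls 4 and 5 and -0.018 to 0.049 leaving out a sample. mt-Ts1 was 0.60 without controls 4 and 5 and -0.61 to 0.29 leaving out a sample. mt-Nd6 was 0.49 without controls 4 and 5. With the counts of all other genes as the denominator, the mt- share fell by 10.5 points. The log2 rRNA to mRNA ratio rose by 0.81 to 1.31 over 15 alternatives. The replicate block called 13 mt- genes, losing mt-Ts1 at -1.25 (adjusted p = 0.0742, edgeR), and 10325 genes in all. The causes were not tested. Low counts, at most 10.4 in any sample, limit the 21 tRNAs that were not tested. Leaving out treated replicates 1 and 5, chosen because they were lowest for the rRNAs, gave the count of 15 and is no evidence on mt-Rnr1.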

Other observations

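Ratios between neighbouring mitochondrial genes were computed after seeing the data, for 4 pairs. The count of mt-Rnr1 was 72.0% ± 10.5 of that of mt-Rnr2 in controls and 91.0% ± 7.48 with puberulic acid (SD, n = 5 each; exact two-sided permutation p = 0.0238, adjusted over 4 pairs 0.0476). The count of mt-Nd4l was 6.84% ± 0.649 of that of mt-Nd4 in controls and 7.85% ± 0.217 with the compound (exact two-sided permutation p = 0.0159, adjusted 0.0476). Both pairs overlapped between groups. Leaving out any sample gave adjusted values of 0.0635 to 0.0952 for either pair, where the smallest unadjusted p that 4 against 5 allows is 0.0159. mt-Atp8 was 13.3% and 15.3% of mt-Atp6 (exact permutation, adjusted p = 0.106), and mt-Nd6 was 3.33% and 1.36% of mt-Nd5 (exact permutation, adjusted p = 0.254).

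Beside Gm29216, 16 genes outside the mitochondrial genome had stretches at least 90% identical to a member over 100 bases. Their highest group mean was 17.4 counts, so few reads of the members were given to them.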
